A study of Mus musculus with 6 samples.

Results

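Secreted proteases that cut cartilage and bone matrix, and the activators that turn plasminogen into plasmin, were followed in sorted osteocytes with and without estrogen receptor alpha (ERα). The 8 genes named for this were Adamts1, Adamts2, Adamts4, Adamts5, Adamts9, Htra1, Plat and Plau. Every probe set whose platform annotation gives exactly 1 gene, and that gene one of these 8, was taken. This gave 16 probe sets of 7 genes, out of 34945 single-gene probe sets of 18193 genes on the array. Adamts2, which encodes the enzyme that removes the amino-terminal propeptide of fibrillar procollagens, had no such probe set and was not analysed here.

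Knockout mice lacked ERα in osteocytes (ERαΔOcy/ΔOcy) and gave 3 arrays. Control littermates, called WT in the titles and ERαflox/flox in the extraction protocol, also gave 3 arrays. Mice of both genotypes were female C57/BL6 animals given as 10 to 12 days old, and both carried Dmp1-GFP, a green fluorescent marker driven by the promoter of Dmp1, a gene of osteocytes and late osteoblasts. Calvarial bone was digested in 6 steps of 30 min, and GFP-positive cells of fractions 4 to 6 were sorted and hybridised to Affymetrix arrays. The sorting gate held 10% to 15% of cells in mice with the marker and 0.8% to 1.0% in mice without it. The sources used here name neither the driver of the deletion nor the Cre status of the controls, so effects of Cre and of ERα loss cannot be told apart. The design text says that no RNA was pooled, but the protocol mentions pooled calvarial tissue, so the p-values measure the spread between these arrays and may not measure that between mice.

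ADAMTS enzymes are secreted zinc metalloproteases with thrombospondin repeats that anchor them in the matrix. ADAMTS4 and ADAMTS5 are known as aggrecanases, which cut the core protein of the cartilage proteoglycan aggrecan, and ADAMTS1 and ADAMTS9 also cut the related proteoglycan versican. Plau encodes urokinase and Plat encodes tissue plasminogen activator, serine proteases that convert plasminogen into plasmin, a broad protease that degrades fibrin and matrix proteins. Htra1 encodes a secreted serine protease with a PDZ domain that cleaves matrix proteins and is present in mineralising tissue. ERα acts in the nucleus as a ligand-bound factor that binds DNA at estrogen response elements or through partners such as AP-1.

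The arrays differed in the marker RNA of osteocytes and of other cell types. All 6 carried osteocyte RNA: the summed deposited signal of 12 osteocyte markers lay between 13935 and 18474.5 in knockout arrays and between 13824.6 and 17397.7 in control arrays, with the hormone gene Fgf23 near 0 (at most 10.4). The summed signal of 13 skeletal muscle markers ran from 4598.2 to 22677.7 in knockout arrays and from 202.7 to 40597.2 in control arrays (lowest in replicate 2 and highest in replicate 1). For 10 macrophage markers it ran from 6725.7 to 8536.7 in knockout arrays and from 2642.6 to 10490.7 in control arrays (lowest in replicate 1 and highest in replicate 2). Esr1, the gene of ERα, was read by 3 probe sets, and the signal of 1 of them was 1.0, 1.0 and 2.5 in knockout replicates 1, 2 and 3, against 20.2, 11.6 and 13.3 in control replicates 1, 2 and 3. That probe set differed by -0.86 ± 0.13 on the log2 scale (SE), at signals of at most 20.2 on every array. The other 2 differed by -0.13 ± 0.20 and -0.20 ± 0.12 (SE). The labels do not give the deleted part of the gene, so Esr1 does not settle whether the labels are right. In bulk RNA, fewer cells of a type and less RNA per cell cannot be told apart.

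Promoter windows of 4 of the 8 genes were in the RefSeq table (build GRCm38.p6). Those of the measured genes Adamts1, Adamts9 and Htra1 are shown because the comparison asks about a factor that binds DNA. Each line holds the 250 bases before a start given in the RefSeq table, in gene orientation. GC boxes (GGGCGG or its complement CCGCCC) and the TATA box (TATAAA, read on the gene's strand) are in capitals. The Adamts1 and Htra1 windows end at the edge of the gene span. The Adamts9 window lies inside its gene span (chr6:92772699-92944450), so it does not precede the outermost start of the gene.
Adamts1, chr16:85803114-85803363, minus strand: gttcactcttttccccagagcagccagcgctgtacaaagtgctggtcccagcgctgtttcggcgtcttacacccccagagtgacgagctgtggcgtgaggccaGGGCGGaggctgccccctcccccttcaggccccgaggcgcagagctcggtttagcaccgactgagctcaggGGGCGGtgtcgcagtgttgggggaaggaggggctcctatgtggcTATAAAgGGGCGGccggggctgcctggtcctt
Adamts9, chr6:92943535-92943784, minus strand: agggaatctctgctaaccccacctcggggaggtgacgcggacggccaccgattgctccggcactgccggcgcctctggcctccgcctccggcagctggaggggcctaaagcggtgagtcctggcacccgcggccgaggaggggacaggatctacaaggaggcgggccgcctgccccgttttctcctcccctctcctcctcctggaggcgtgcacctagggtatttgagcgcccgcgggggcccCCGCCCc
Htra1, chr7:130935953-130936202, plus strand: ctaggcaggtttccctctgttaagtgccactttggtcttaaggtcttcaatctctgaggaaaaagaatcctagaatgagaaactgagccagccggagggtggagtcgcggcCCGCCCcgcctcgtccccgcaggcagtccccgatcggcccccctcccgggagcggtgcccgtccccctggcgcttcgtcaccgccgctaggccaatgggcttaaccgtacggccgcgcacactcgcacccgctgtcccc

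The palindromic consensus estrogen response element was in none of these 3 windows, and it is in 0.0639% of the 32851 promoter windows of the table. The AP-1 element TGANTCA was also in none of the 3, and is in 6.75% of all windows. Both letter strings read the same on either strand. Adamts1 was the window with a TATA box, 32 bases before the start, a string held by 7.59% of all windows, and it had 3 GC boxes, while Adamts9 and Htra1 had 1 each. A GC box is in 32.7% of all windows. GC content was 65.6% for Adamts1, 71.2% for Adamts9 and 64.8% for Htra1. The GC and TATA boxes do not overlap each other in these windows, and a match is a description of letters, not a measured site.

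None of the 7 measured proteases passed the test for a difference between knockout and control arrays. Levels are given as quantile-normalised log2(signal + 16), and folds taken from them are smaller than the true change for dim genes. All 7 genes passed the level filter, and 0 of 7 had an adjusted p under 0.05 in limma across 10916 genes, where the share of all genes called was 0%. The smallest adjusted p of a member was 0.402, for Plau. At an unadjusted p under 0.05 there was 1 of 7, Plau, against 10.5% of all tested genes. Knockout and control arrays overlapped for all 7 genes, while they did not overlap for 17% of all tested genes. Differences were above 0 for 4 of 7 members and for 48.3% of all genes (5 of 7 and 76.4% with the deposited scaling), and the median difference was 0.04 among members and -0.01 among all genes. The smallest 2-sided p that an exact permutation of 3 against 3 arrays can give is 0.1.

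**Figure D1:**
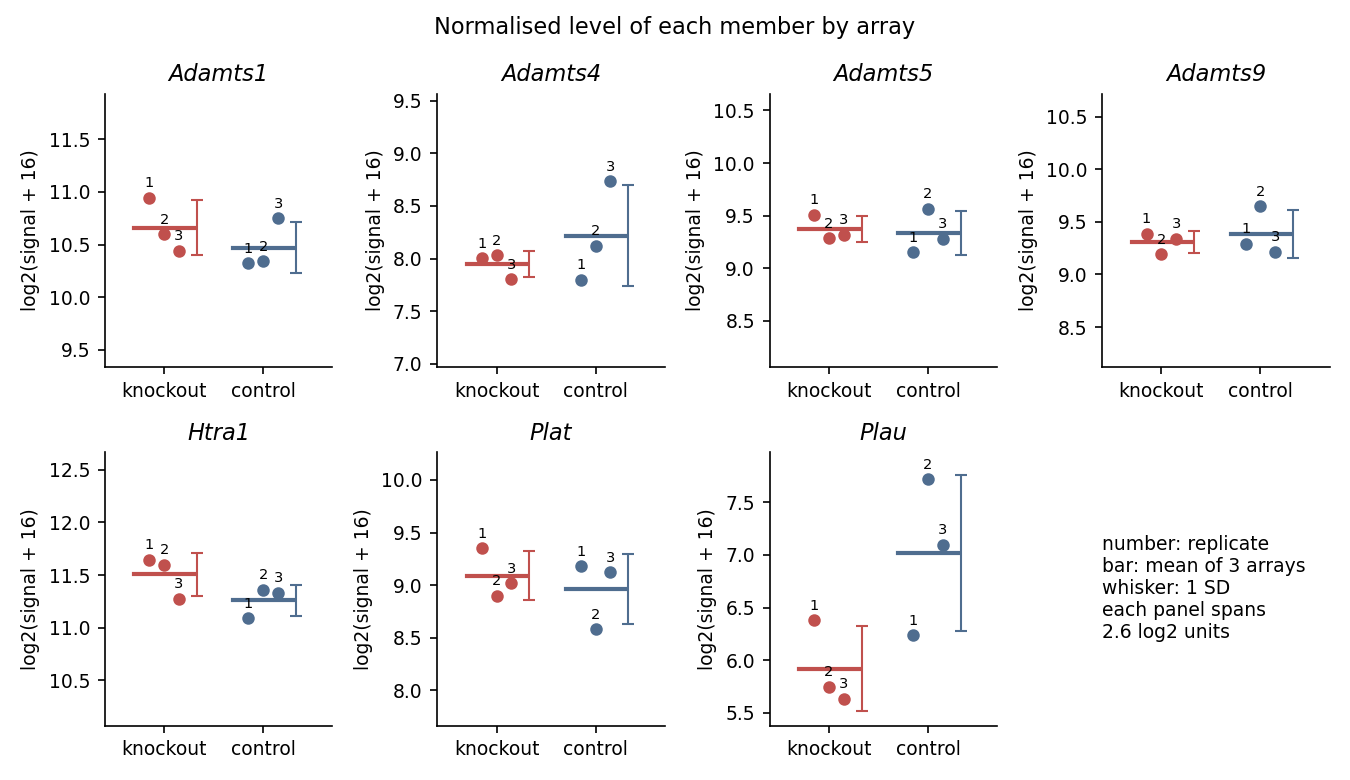
Normalised level, log2(signal + 16), of the probe set that stands for each of the 7 measured genes, in knockout arrays (left, red) and control arrays (right, blue). Points are arrays numbered by replicate, bars are means of 3 arrays and whiskers 1 SD, and every panel spans the same height. The groups overlap in all 7 panels, and Plau has the widest spread, from 5.63 to 7.72.

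Plau, on chr14:20836662-20843388, had the largest difference of the 7, with the knockout mean below the control mean. Its deposited signal at probe set 1422139_at was 66.2, 34.9 and 43.8 in knockout replicates 1, 2 and 3, against 63.1, 180.4 and 105.1 in control replicates 1, 2 and 3. Control replicates 2 and 3 stood above every other array, while control replicate 1 lay within the range of the knockout arrays. Normalised levels averaged 5.92 ± 0.40 in knockout arrays and 7.02 ± 0.75 in control arrays (SD, n = 3 each). The difference was -1.10 ± 0.37 (SE), 0.467-fold, with a 95% interval of 0.256-fold to 0.851-fold and an unadjusted p of 0.0194 in limma (adjusted p = 0.402). The second probe set, 1422138_at, had signals of 26.6, 22.7 and 18.2 in knockout replicates 1, 2 and 3, against 25.0, 45.3 and 33.3 in control replicates 1, 2 and 3. Here too control replicates 2 and 3 were the highest arrays and control replicate 1 lay among the knockout arrays, with a difference of -0.48 ± 0.23 (SE, limma over all probe sets, adjusted p = 0.508).

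The size of the Plau difference depended on single control arrays. Without control replicate 1 it was -1.49 (limma, adjusted p = 0.154), and without control replicate 2 it was -0.75 (limma, adjusted p = 0.287). Macrophage markers moved with Plau among the controls: after centring each of the 10 tested markers over the 6 arrays, their mean level was -1.34, 0.63 and 0.62 in control replicates 1, 2 and 3, where Plau was at -0.23, 1.25 and 0.63. In knockout replicates 1, 2 and 3 the markers stood at 0.35, 0.14 and -0.40 and Plau at -0.09, -0.72 and -0.83, so both were highest in replicate 1 and lowest in replicate 3. Every knockout array had more macrophage marker RNA than control replicate 1, whereas Plau was higher than there in knockout replicate 1 and lower in knockout replicates 2 and 3. The defining macrophage gene Csf1r, a receptor tyrosine kinase, had levels of 11.19, 11.02 and 10.56 in knockout replicates 1, 2 and 3, against 9.59, 11.78 and 11.72 in control replicates 1, 2 and 3. Control replicate 1 was also the lowest array for osteoclast markers, at -0.40, -0.01 and -0.01 in control replicates 1, 2 and 3. It was lowest too for 2 gene lists described below. The plasminogen system list stood there at -0.29, 0.10 and 0.05, and the inhibition and uptake list at -0.33, 0.11 and 0.07. The part of macrophage RNA, or of RNA from other cells, in the Plau difference was not tested. Skeletal muscle markers went another way among the controls, with 2.16, -3.61 and 2.09 in replicates 1, 2 and 3. Pericyte and fibroblast markers were also lowest in control replicate 2.

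**Figure D2:**
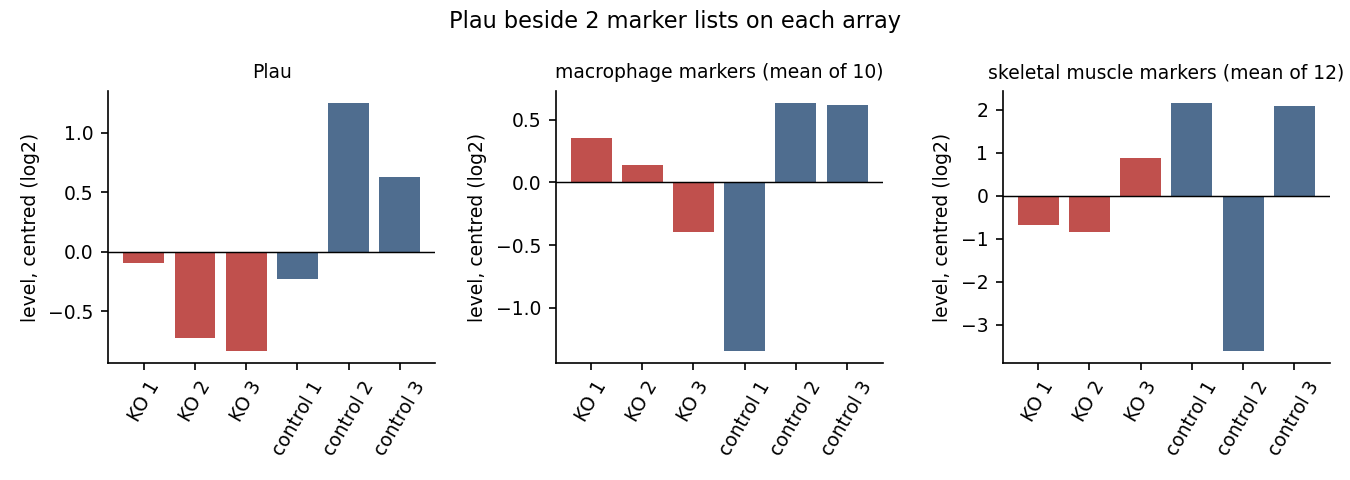
Level of Plau, the mean level of 10 macrophage markers and the mean level of 12 tested skeletal muscle markers on each array, in log2 units centred over the 6 arrays, with knockout arrays in red to the left of control arrays in blue. Control replicate 1 is lowest for macrophage markers at -1.34 and is the lowest control for Plau at -0.23, while muscle markers are lowest in control replicate 2.

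Plat, on chr8:22757722-22782848, the other plasminogen activator, had signals of 623.0, 440.2 and 635.3 in knockout replicates 1, 2 and 3, against 588.8, 343.6 and 468.5 in control replicates 1, 2 and 3. Control replicate 2 was the lowest array and the remaining arrays of both groups were interleaved. Normalised levels averaged 9.09 ± 0.23 in knockout arrays and 8.96 ± 0.33 in control arrays (SD, n = 3 each). Its difference was 0.13 ± 0.19 (SE, limma, adjusted p = 0.847), with an interval of 0.807-fold to 1.48-fold, and the sign turned without control replicate 2 (-0.06). The second probe set of Plat differed by -0.02 ± 0.18 (SE). Endothelial markers, 9 tested genes of a cell type known for tissue plasminogen activator, also had their lowest mean centred level in control replicate 2, at -0.25. They stood at 0.17, 0.05 and -0.21 in knockout replicates 1, 2 and 3, and at -0.10 and 0.34 in control replicates 1 and 3, and their part in Plat levels was not tested. Control replicate 2 was also the lowest array for chondrocyte, skeletal muscle, pericyte, fibroblast and osteocyte markers, at -1.11, -3.61, -0.27, -0.55 and -0.23. The summed deposited signal of all 10 endothelial markers lay between 624.1 and 690.2 in knockout arrays and between 500.6 and 837.0 in control arrays, with the receptor gene Tie1 near 0 (at most 7.9). Whether Plat and Plau differ from each other in their response to the deletion was not tested.

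Aggrecanase genes were measured on the same arrays. Adamts4, on chr1:171250129-171262267, had signals of 234.4, 232.9 and 261.3 in knockout replicates 1, 2 and 3, against 217.7, 244.4 and 355.1 in control replicates 1, 2 and 3. Control replicate 3 stood above the other 5 arrays, which lay close together. Its difference was -0.27 ± 0.22 (SE, limma, adjusted p = 0.699), with means of 7.95 ± 0.12 in knockout arrays and 8.22 ± 0.48 in control arrays (SD, n = 3 each). The second probe set had the same single high array, at 318.8 in control replicate 3 against 220.1 and 233.4 in control replicates 1 and 2, and differed by -0.32 ± 0.20 (SE). Without control replicate 3 the difference of Adamts4 was -0.01.

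Adamts5, on chr16:85858157-85901125, had signals of 691.5, 584.5 and 785.7 in knockout replicates 1, 2 and 3, against 580.1, 695.6 and 527.1 in control replicates 1, 2 and 3. After normalisation the 3 knockout arrays lay inside the range of the control arrays (9.16 to 9.57), with means of 9.37 ± 0.12 in knockout arrays and 9.33 ± 0.21 in control arrays (SD, n = 3 each). The difference was 0.04 ± 0.13 (SE, limma, adjusted p = 0.939), with a 95% interval of 0.835-fold to 1.26-fold. Of its other probe sets, 1456404_at differed by 0.04 ± 0.11 and 1450658_at by -0.10 ± 0.12 (SE). The remaining one, 1456969_at, read signals of 0.5, 4.1 and 2.8 in knockout arrays and 0.2, 5.8 and 0.8 in control arrays, fell under the level filter and was the one member probe set not tested.

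Adamts1, on chr16:85793827-85803113, was read by a single probe set with signals of 1918.1, 1479.8 and 1713.1 in knockout replicates 1, 2 and 3, against 1327.3, 1208.3 and 1470.5 in control replicates 1, 2 and 3. In the deposited signals every knockout array lay above every control array, with 1479.8 in knockout replicate 2 just above 1470.5 in control replicate 3. After quantile normalisation the groups overlapped, at 10.95, 10.60 and 10.44 in knockout replicates 1, 2 and 3 and 10.32, 10.34 and 10.75 in control replicates 1, 2 and 3. Adamts1 thus differed by 0.19 ± 0.16 (SE, limma, adjusted p = 0.719), and by 0.34 with the deposited scaling, where the median of all genes was 0.14. With 1 array left out it ran from 0.05 without knockout replicate 1 to 0.33 without control replicate 3. The share of all genes apart in the deposited signals was not counted, and 76.4% of all genes lay above 0 with that scaling.

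Adamts9, on chr6:92772699-92944450, had signals of 641.1, 547.1 and 796.7 in knockout replicates 1, 2 and 3, against 635.9, 735.2 and 503.8 in control replicates 1, 2 and 3. Control replicate 2 was the highest normalised array. The groups differed by -0.08 ± 0.13 (SE, limma, adjusted p = 0.864), with an interval of 0.765-fold to 1.17-fold. With the deposited scaling it was 0.08, below the 0.14 of all genes. Its 3 probe sets did not run one way: 1430352_at differed by 0.10 ± 0.16 and 1431399_at by -0.24 ± 0.13 (SE). The last of these was the 1 member probe set of 15 tested whose normalised groups did not overlap, with levels of 6.03, 6.02 and 6.23 in knockout replicates 1, 2 and 3 and 6.34, 6.23 and 6.42 in control replicates 1, 2 and 3, where 16.7% of all probe sets did not overlap. Its deposited signals did overlap, at 48.8, 45.7 and 76.3 in knockout arrays and 69.2, 53.9 and 60.3 in control arrays, and its adjusted p was 0.566 in limma.

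Htra1, on chr7:130936203-130985658, had signals of 3164.9, 3038.8 and 3034.8 in knockout replicates 1, 2 and 3, against 2226.2, 2456.9 and 2209.2 in control replicates 1, 2 and 3. All 3 deposited knockout signals lay above all 3 control signals, while after normalisation knockout replicate 3 (11.27) lay below control replicates 2 and 3 (11.36 and 11.33). The normalised means were 11.51 ± 0.20 in knockout arrays and 11.26 ± 0.15 in control arrays (SD, n = 3 each). The difference was 0.25 ± 0.12 (SE, limma, adjusted p = 0.530), 1.19-fold, with a 95% interval of 0.971-fold to 1.45-fold. Under the deposited scaling it was 0.42 (limma, adjusted p = 0.532), beside 0.14 for the median of all genes. It stayed above 0 with any 1 array left out, between 0.16 and 0.36. The share of all genes apart in the deposited signals was not counted, and 76.4% of all genes lay above 0 with that scaling. The second probe set, 1438251_x_at, which by its name may also bind related transcripts, had 2604.7, 3066.8 and 2938.2 in knockout arrays against 2164.1, 2592.7 and 2178.9 in control arrays and differed by 0.14 ± 0.13 (SE).

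**Figure D3:**
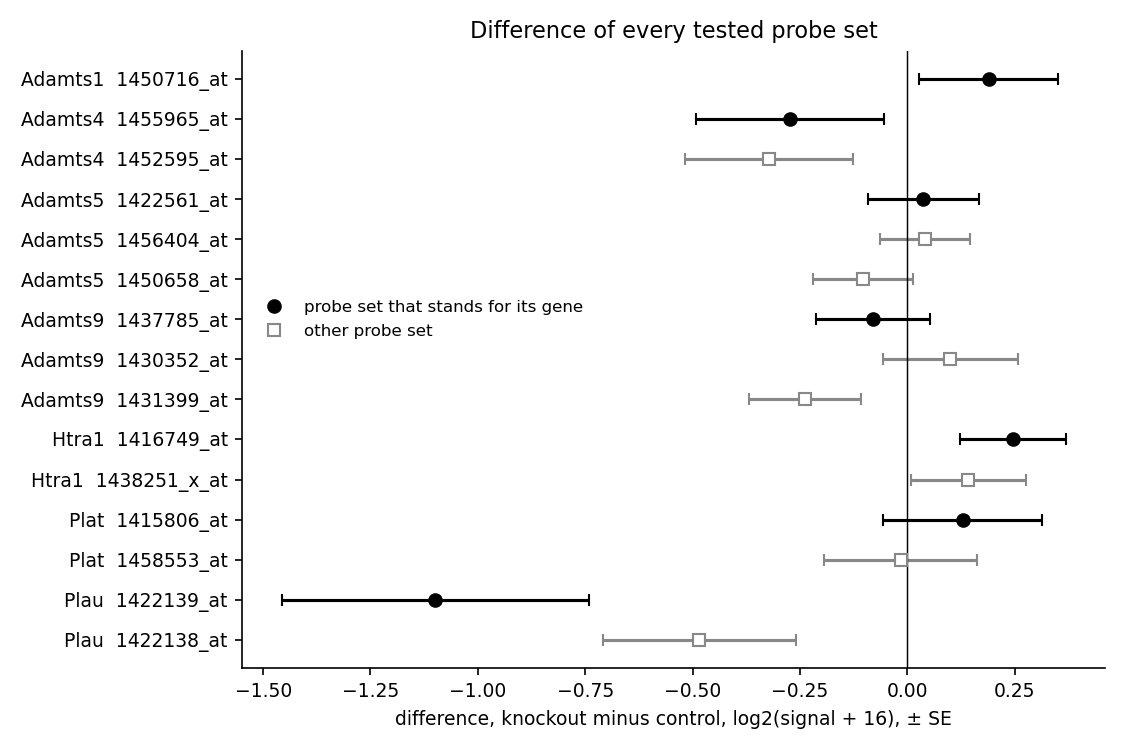
Difference of each of the 15 tested probe sets, knockout minus control, on the log2(signal + 16) scale with its SE. Filled circles mark the probe set that stands for its gene and open squares the others. Both probe sets of Plau, at -1.10 and -0.48, lie left of 0, both of Adamts4 also lie left, both of Htra1 lie right, and those of Adamts5, Adamts9 and Plat lie on either side.

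Over the 15 tested probe sets, 7 differences were above 0 and 8 below, and 0 passed the threshold, as for 0% of all 20967 probe sets. At an unadjusted p under 0.05 there was 1 of 15, a Plau probe set, against 10.4% of all. Probe sets of a gene shared their sign for Adamts4, Htra1 and Plau. Without control replicate 2, 2.73% of all genes passed the threshold and still 0 of the 7 members, and with the deposited scaling 0.275% of all genes and 0 of 7. Members also varied unlike each other among arrays: the root mean square deviation over the 6 arrays was 0.74 log2 units for Plau, 0.32 for Adamts4, 0.24 for Plat, 0.22 for Adamts1, 0.19 for Htra1, 0.15 for Adamts9 and 0.14 for Adamts5, and its median over all tested genes was 0.16. The closest pair was Adamts5 and Adamts9, whose centred levels differed by a root mean square of 0.09, both being highest in control replicate 2. Plat and Plau, the activators of plasminogen, were the pair farthest apart, at 0.87. The measure grows with the spread of a gene. Every pair with Plau lay at 0.61 or more, and every pair without it at 0.40 or less.

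The genes with the profile nearest to each member were found by the same measure, taken over 6 arrays. Nearest to Plau were Gm9706 at 0.20, Hpgds, which encodes a prostaglandin D synthase, at 0.33, and the tumour necrosis factor receptor gene Tnfrsf1b at 0.34, each with its lowest control level in replicate 1. Adamts4 had Mgl2, a lectin gene, at 0.06, Lrrc8d at 0.07 and Car11 at 0.09, each highest in control replicate 3. For Adamts5 they were Rad52, Cpeb4 and Prkd2 at 0.03 each, and for Adamts9 Mypop at 0.03 and Yipf2 and Gtf2a1 at 0.04 each. Adamts1 was nearest to Gpatch4, Spata24 and Kcne4 at 0.06 each, Htra1 to Herpud1, Nup50 and Wdr18 at 0.06 each, and Plat to Amigo2 at 0.07, Tmem70 at 0.08 and Dnajc14 at 0.09. These values describe likeness on these 6 arrays, and no test was made of it.

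Genes around these proteases, in 8 lists with 61 distinct genes, had 54 with a probe set and 44 tested, and 0 passed the threshold in either direction. Differences were above 0 for 21 and below 0 for 23 of them, with a median of -0.01. Groups did not overlap for 13 of 44, beside 17% of all tested genes, and 9 of 44 had an unadjusted p under 0.05, beside 10.5%. With the deposited scaling the medians of the inhibitor, substrate and plasminogen lists were 0.35, 0.45 and 0.31, beside 0.14 for all genes. Those of the other Htra and Adamts-like lists were 0.34 and 0.27. The other Adamts, procollagen and serpin lists were at 0.10, 0.09 and -0.17. The lists overlap, and cartilage genes among the substrates are also chondrocyte markers.

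Other Adamts proteases were below 0 for 8 and above 0 for 2 of 10 tested, with a median of -0.03 and 0 called. With the deposited scaling 7 were above 0 and 3 below, with a median of 0.10, below the 0.14 of all genes. The median was 0.018 without control replicate 1 and -0.13 without control replicate 2. Adamts15, another aggrecan-cleaving enzyme, had levels of 6.21, 6.11 and 6.38 in knockout replicates 1, 2 and 3, against 6.97, 6.18 and 7.09 in control replicates 1, 2 and 3. Control replicate 2 lay with the knockout arrays, and without it the difference of -0.51 ± 0.24 (SE, limma, adjusted p = 0.503) became -0.80 (limma, adjusted p = 0.0333). The 11 pericyte and smooth muscle markers had mean centred levels of -0.17, -0.26 and -0.24 in knockout replicates 1, 2 and 3, against 0.43, -0.27 and 0.50 in control replicates 1, 2 and 3, so here too control replicate 2 lay with the knockout arrays. Their summed deposited signal lay between 15623.5 and 19021.0 in knockout arrays and between 16124.2 and 25758.2 in control arrays. Without control replicate 2, 7 of these 11 markers were also called lower in limma, beside 1.94% of all tested genes. So were 4 of 12 skeletal muscle markers, 4 of 9 fibroblast markers, 2 of 11 osteocyte markers and 2 of the endothelial markers. Called higher there were 5 of 14 chondrocyte markers and 1 of 7 osteoblast markers, beside 0.788% of all tested genes. The part of these cell types in the Adamts15 difference was not tested. Adamts18, Adamts16 and Adamts10 differed by 0.28, -0.38 and 0.13. Adamts-like proteins, which resemble the proteases but lack the catalytic domain, were above 0 for 3 of 3 tested with a median of 0.14, which was -0.01 without control replicate 2 and 0.25 without control replicate 3. Adamtsl1, Adamtsl4 and Adamtsl3 differed by 0.28, 0.14 and 0.13.

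Genes listed around inhibition and uptake of these enzymes were above 0 for 4 and below 0 for 2 of 6 tested, with a median of 0.20 and 0 called. Not all of this list are inhibitors or uptake receptors. Without control replicate 1 that median was 0.075. Timp2, a tissue inhibitor of metalloproteases, had levels of 11.48, 11.62 and 11.51 in knockout replicates 1, 2 and 3, against 10.98, 11.11 and 11.38 in control replicates 1, 2 and 3. The groups were apart, with a difference of 0.38 ± 0.11 (SE, limma, adjusted p = 0.362). Reck, a membrane-bound inhibitor, differed by 0.29 ± 0.12, and Lrp1, the endocytic receptor that clears ADAMTS enzymes and plasminogen activators, by 0.25 ± 0.10 (SE), both with groups apart. Sdc4 differed by -0.33 ± 0.31 (SE). Timp3, the main tissue inhibitor of aggrecanases, differed by 0.15 ± 0.15 (SE). A2m and Timp4 of this list were under the level filter and not tested. Signals of A2m were 39.2, 36.4 and 27.4 in knockout replicates 1, 2 and 3, against 12.6, 12.7 and 7.4 in control replicates 1, 2 and 3. Those of Timp4 were 12.6, 14.2 and 16.5 in knockout replicates, against 24.7, 9.2 and 38.1 in control replicates.

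Substrates of the proteases were above 0 for 5 and below 0 for 3 of 8 tested, with a median of 0.30 and 0 called. Without control replicate 2 that median was 0.18. Acan, which encodes aggrecan, had levels of 8.70, 9.04 and 8.33 in knockout replicates 1, 2 and 3, against 7.40, 7.14 and 7.20 in control replicates 1, 2 and 3. It was 2.72-fold in knockout arrays relative to control arrays (limma, adjusted p = 0.120). Leaving out control replicate 2 brought it past the threshold (limma, adjusted p = 0.0175), as did the deposited scaling. The proteoglycan genes Vcan (versican) and Fmod (fibromodulin) differed by 0.45 ± 0.09 and 0.54 ± 0.17 (SE), with groups apart for both. Dcn, decorin, differed by -0.15 ± 0.07 (SE). The 14 tested chondrocyte markers, which include Acan, had mean centred levels of 0.81, 0.92 and 0.05 in knockout replicates 1, 2 and 3, against -0.09, -1.11 and -0.59 in control replicates 1, 2 and 3, and the part of cartilage RNA in the substrate differences was not tested. The summed deposited signal of all 15 chondrocyte markers lay between 6267.3 and 9020.5 in knockout arrays and between 2902.7 and 5709.7 in control arrays, so the groups did not overlap. The substrate Acan and its aggrecanases Adamts4 and Adamts5 thus had differences of 1.44, -0.27 and 0.04, and the differences between these genes were not tested.

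Procollagens and their processing genes were below 0 for 6 and above 0 for 1 of 7 tested, with a median of -0.05, which was 0.09 with the deposited scaling. Bmp1, the procollagen C-proteinase, had 9.31, 9.28 and 9.28 in knockout replicates 1, 2 and 3, against 9.58, 9.43 and 9.55 in control replicates 1, 2 and 3, a difference of -0.23 ± 0.08 with groups apart (SE, limma, adjusted p = 0.419). Adamts3, a close relative of Adamts2 among the procollagen N-proteinases, was at 7.75 in both groups, with a difference of -0.0045 ± 0.14 (SE). Col1a2, Pcolce and Col1a1 differed by -0.09, -0.07 and -0.05, with groups apart for Pcolce.

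Plasminogen system genes were above 0 for 5 and below 0 for 2 of 7 tested, with a median of 0.16 and 0 called. Without knockout replicate 1 that median was 0.0098. The substrate gene Plg, mainly a liver gene, was under the level filter, with signals between 1.6 and 9.8 on all arrays. Plaur, which encodes the urokinase receptor, had levels of 8.25, 8.24 and 7.63 in knockout replicates 1, 2 and 3, against 7.08, 8.77 and 8.69 in control replicates 1, 2 and 3. Control replicate 1 was the lowest array for Plaur, and control replicates 2 and 3 were the highest arrays, as they were for Plau. Plaur differed by -0.14 ± 0.44 (SE, limma, adjusted p = 0.932). Plaur was named after its values were seen. Anxa2, a plasminogen-binding annexin, differed by 0.18 ± 0.08 with groups apart, Plgrkt, a plasminogen receptor, by 0.16 ± 0.13, and S100a10, the partner of Anxa2, by 0.10 ± 0.12 (SE). Of the serpins, which inhibit the activators or plasmin, 2 were tested, and both were below 0: Serpini1, neuroserpin, an inhibitor of tissue plasminogen activator, by -0.58 ± 0.16 with groups apart (SE, limma, adjusted p = 0.331) and Serpinb6a by -0.04. Serpinb2 and Serpinf2 lay under the level filter.

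The other Htra proteases were above 0 for 2 and below 0 for 1 of 3. Htra2, a mitochondrial protease, had 7.57, 7.69 and 7.46 in knockout replicates 1, 2 and 3, against 7.31, 7.24 and 7.14 in control replicates 1, 2 and 3, a difference of 0.35 ± 0.11 with groups apart (SE, limma, adjusted p = 0.377). Htra4 differed by 0.22 ± 0.14 with groups apart, and the secreted Htra3 by -0.19 ± 0.15 with groups overlapping (SE).

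**Figure D4:**
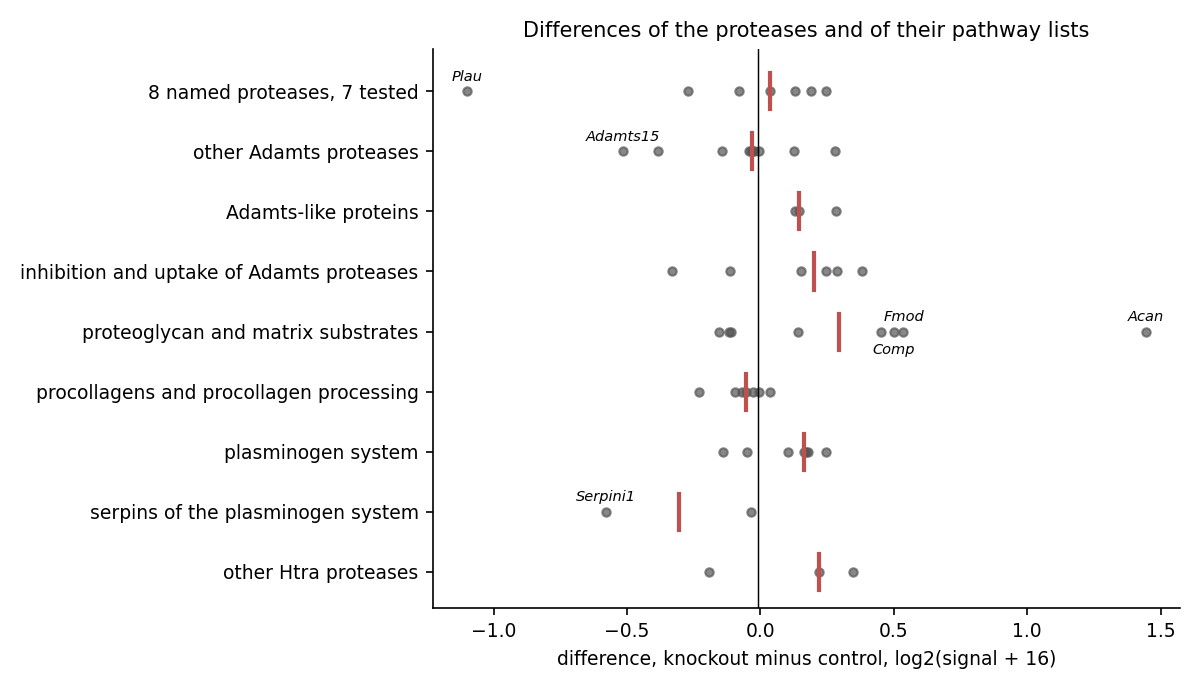
Difference of every tested gene, knockout minus control on the log2(signal + 16) scale, for the named proteases and for 8 lists of related genes. Points are genes, red ticks the median of each list and the vertical line the median of all tested genes at -0.01. Genes beyond 0.5 in either direction are named, from Plau at -1.10 to Acan at 1.44.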

How the data were processed

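The authors deposited 1 intensity per probe set and array on a linear scale. GCOS is named in the submitters' processing notes; those notes name no background correction, probe summary or scaling target. Array medians of the deposited signal were between 20.2 and 28.6 in knockout arrays and between 18.7 and 22.7 in control arrays. Of 45101 probe sets, 64 controls were left out. From the rest log2(signal + 16) was computed and quantile normalised. Gene symbols came from the platform annotation, updated by gene identifier through RefSeq (34741 of 34945 single-gene probe sets matched, 932 had several genes and 9160 were unnamed). Each gene was represented by its probe set of highest mean, and the lowest 40% of genes (mean under 5.37) were left out. Knockout arrays were set against control arrays with limma 3.58.1 under R 4.3.3 (trend, 2-sided, Benjamini-Hochberg at 0.05, no covariate), in a gene fit and in a fit over all probe sets filtered the same way. Detection calls were not used, and the number of arrays limits the precision. The limma fit was tested on simulated data, drawn as independent normal values around the normalised levels of the filtered genes. Normalisation, filtering and the choice of probe sets were not tested in this way. Genes named were all members, up to 4 genes of each list with the smallest p, and the 3 nearest profiles of each member. Timp3, A2m, Timp4, Adamts3, Plaur, Plg, the serpins under the filter, Csf1r, Dmp1, Sost, Mepe, Dkk1, Fgf23 and Tie1 were added with their values in view. Members and lists were chosen with earlier results of these data known. The GC and TATA boxes were added after the windows were seen. Replicate numbers come from the titles.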

Additional observations from a re-analysis of the deposited data

How the results depend on the processing

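By limma, 0 members passed the threshold under deposited or median scaling, pseudocounts of 4 and 64, no level filter or one of 60% (which leaves Plau out), the mean of all probe sets, array weights, the replicate block, and with each array left out. The member probe sets were refitted with the deposited scaling and with each array left out, and 0 passed. Over all genes, 30 were called higher with the deposited scaling, and with 1 array left out 0 to 86 were called higher and 0 to 212 lower, all of them without control replicate 2. Of the pathway genes, 1 (Acan) was called with the deposited scaling and 0 to 2 with 1 array left out (Acan and Adamts15 without control replicate 2). These signs turned. With the deposited scaling, which moved the median of all genes to 0.14, Adamts9 was at 0.080, Adamts5 probe set 1450658_at at 0.042 and Plat probe set 1458553_at at 0.10; with the mean of probe sets Adamts5 was at -0.0065. With 1 array left out, Adamts5 ran from -0.052 to 0.15, Adamts9 from -0.16 to 0.051 and Plat from -0.062 to 0.24; probe set 1456404_at of Adamts5 ran from -0.035 to 0.085, 1430352_at of Adamts9 from -0.036 to 0.17 and 1458553_at of Plat from -0.14 to 0.11. The cause was not tested. The replicate block called 0 genes. Deviations of same-numbered arrays correlated at -0.38, 0.10 and -0.04 for replicates 1, 2 and 3. With 3 arrays per group these values cannot show whether the numbers pair the arrays. With the deposited scaling 76.4% of genes lay above 0, against 48.3%.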
